A study of Mus musculus with 10 samples.

Results

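The genes described here are 10 genes of CC chemokines, Ccl2, Ccl3, Ccl4, Ccl5, Ccl6, Ccl7, Ccl9, Ccl17, Ccl22 and Ccl24, out of 19937 named genes on Affymetrix Mouse Gene 1.0 ST arrays. They were picked by name as members of the family with earlier results of these data known, and do not stand for the whole family. A gene was read by the probe set that the array's annotation ties to 1 symbol, the brightest of them where there were several. Each of the 10 genes had 1 such probe set. CC chemokines are small secreted proteins that draw leukocytes along a gradient through G protein-coupled receptors, and these receptors differ in which leukocytes carry them. Basophils and mast cells make them when antigen crosslinks IgE on the receptor FcεRI, and eosinophils and basophils are themselves attracted by several of them. Among the 10, Ccl2 and Ccl7 encode ligands of CCR2, Ccl3, Ccl4 and Ccl5 encode inflammatory chemokines that attract monocytes and T cells, Ccl6 and Ccl9 encode CCR1 ligands of rodents, Ccl17 and Ccl22 encode the ligands of CCR4, and Ccl24 encodes a ligand of CCR3, the receptor that attracts eosinophils.

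The study examined SLPI, a secreted inhibitor of serine proteases, in the effector cells of allergy. Cells were grown from the bone marrow of Slpi-/- mice and of wild-type mice (B6), both labelled as strain C57BL6/N, and the age of the mice is not given in the sources used here. There was 1 array for each of 10 conditions, and each genotype had BM-derived basophils (BMBs) loaded with IgE against TNP for 1 h before 12 h with the antigen TNP-OVA (called IgE below), unstimulated BMBs, BM-derived eosinophils (BMEos) given lipopolysaccharide (LPS) for 3 h, unstimulated BMEos, and unstimulated mast cells. BMBs were grown in IL-3 and taken as DX5+ cells that lacked c-kit, mast cells were grown in IL-3 for much longer without such a selection, and BMEos were grown in stem cell factor and Flt3 ligand and then in IL-5, so cell type, culture and selection cannot be told apart. How many mice or cultures each array stands for is not given in the sources used here. A test on these arrays covers the spread between arrays of a pair design and not that between cultures.

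The labels were checked first. Slpi, the deleted gene, had log2 signals of 6.35, 6.55, 5.93 and 6.41 in Slpi-/- BMBs with IgE, BMBs, BMEos with LPS and BMEos, against 11.33, 11.42, 7.96 and 8.08 in the same B6 cells, while in mast cells it was 6.47 in Slpi-/- and 6.53 in B6 cells, which gives no check of that pair. The basophil protease gene Mcpt8 was at 12.72 to 13.29 on the BMB arrays, the eosinophil granule gene Prg2 at 12.02 to 12.35 on the BMEos arrays, and the mast cell chymase gene Cma1 at 11.99 and 12.19 on the mast cell arrays. On the mast cell arrays the mast cell genes Tpsab1 and Mrgprb1 were below background, and Mcpt4 exceeded it on the Slpi-/- array only (5.97). Of 7 tested mast cell markers 6 were lower in unstimulated BMBs than in mast cells, but Hdc was higher (12.21 to 13.00 on the BMB arrays, against 8.50 and 8.83). Of 8 basophil markers 5 were higher in BMBs, but Fcer1a was lower (10.90 to 11.47, against 12.24 and 12.16). The mast cell gene Tpsb2 was at 10.49 to 11.51 on the BMB arrays. Olfactory receptor genes (1027 of them) set the background, which was their 95th percentile on each array and lay between 5.56 and 5.78. Of the CC chemokine genes, Ccl2, Ccl3, Ccl4, Ccl5, Ccl6, Ccl7 and Ccl9 exceeded it on all 10 arrays, Ccl17 on 8, Ccl22 on 6 and Ccl24 on 5. All 10 genes entered every test, because each exceeded background on at least 1 array of the fit. RNA was measured in bulk, so a lower signal from fewer expressing cells and one from less RNA per cell cannot be told apart.

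Of the 10 genes, 7 lie on mouse chromosome 11, 2 on chromosome 8 and 1 (Ccl24) on chromosome 5. On chromosome 11, Ccl2 and Ccl7 are neighbours, 29 protein-coding genes separate them from Ccl5, and Ccl5, Ccl9, Ccl6, Ccl3 and Ccl4 then follow each other with no other protein-coding gene between them. On chromosome 8, Ccl22 and Ccl17 stand on either side of Cx3cl1. The annotated spans of Ccl3 and Ccl4 overlap by 755 bases.

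The 250 bases upstream of the annotated start were read from RefSeq (build GRCm38.p6) for the 5 genes with an entry in the promoter table, written 5′ to 3′ on the strand of the gene. Only these 5 are shown because the other members had no entry, Ccl2, Ccl4 and Ccl5 among them, which carry results below as well. Of the 5 shown, Ccl17 rose with IgE, Ccl3 and Ccl22 with LPS, and Ccl6 and Ccl9 separated BMBs and BMEos from mast cells. For Ccl22 (chr8:94745434-94745683, plus strand) capitals mark matches to an NF-κB type motif. For Ccl17 (chr8:94810203-94810452, plus strand) they mark a STAT6 type motif that overlaps an NFAT core, and for Ccl3 (chr11:83649379-83649628, minus strand) NFAT cores on the reverse strand. For Ccl6 (chr11:83593088-83593337, minus strand) and Ccl9 (chr11:83578637-83578886, minus strand) they mark the longest run of bases that both share.
Ccl22: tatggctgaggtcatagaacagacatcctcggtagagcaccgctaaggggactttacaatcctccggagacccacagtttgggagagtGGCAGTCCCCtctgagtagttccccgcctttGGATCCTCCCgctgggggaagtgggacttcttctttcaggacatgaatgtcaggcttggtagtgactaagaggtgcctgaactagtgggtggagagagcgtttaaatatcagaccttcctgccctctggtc
Ccl17: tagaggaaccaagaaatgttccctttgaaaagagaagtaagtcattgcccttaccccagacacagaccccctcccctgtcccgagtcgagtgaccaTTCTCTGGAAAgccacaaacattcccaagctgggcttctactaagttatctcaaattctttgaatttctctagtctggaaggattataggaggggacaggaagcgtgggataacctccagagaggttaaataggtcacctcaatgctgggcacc
Ccl3: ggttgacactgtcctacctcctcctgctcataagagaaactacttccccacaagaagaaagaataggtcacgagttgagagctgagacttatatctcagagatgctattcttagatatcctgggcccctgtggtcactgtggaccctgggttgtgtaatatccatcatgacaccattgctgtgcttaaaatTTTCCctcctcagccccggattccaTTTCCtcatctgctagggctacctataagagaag
Ccl6: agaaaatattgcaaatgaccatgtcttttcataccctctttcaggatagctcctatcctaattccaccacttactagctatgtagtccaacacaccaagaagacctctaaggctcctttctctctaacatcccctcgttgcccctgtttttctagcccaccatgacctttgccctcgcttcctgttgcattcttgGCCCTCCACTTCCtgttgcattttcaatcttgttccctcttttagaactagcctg
Ccl9: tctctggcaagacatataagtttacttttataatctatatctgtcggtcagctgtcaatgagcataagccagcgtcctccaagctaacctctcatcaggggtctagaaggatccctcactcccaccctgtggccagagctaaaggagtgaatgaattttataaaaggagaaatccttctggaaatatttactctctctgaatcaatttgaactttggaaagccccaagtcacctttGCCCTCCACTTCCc

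Each motif was searched on both strands of the 250 bases before the start of 32851 promoters. The NF-κB type motif (GGGNNNNNCC) was in 45.8% of all promoters and had 2 matches in Ccl22, 1 in Ccl9 and 0 in Ccl17, Ccl3 and Ccl6. The NFAT core (GGAAA), which is in 55.6% of promoters, had 2 matches in Ccl3, 2 in Ccl9 and 1 in Ccl17. The AP-1 type motif (TGANTCA, 6.75% of promoters) matched in Ccl9 at -53 from the start, and the STAT6 type motif (TTCNNNNGAA, 5.85% of promoters) matched in Ccl17 at -154, where its last bases are also the first of the NFAT core at -148. In Ccl9 the NF-κB type match at -35 shares its bases with an NFAT core. Ccl6 held none of the 4 motifs. Ccl6 and Ccl9 shared 13 bases, at -55 in Ccl6 and at -14 in Ccl9, and no other pair of the 5 promoters shared a run longer than 10 bases. A match is a run of letters and no measurement of binding.

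**Figure D1:**
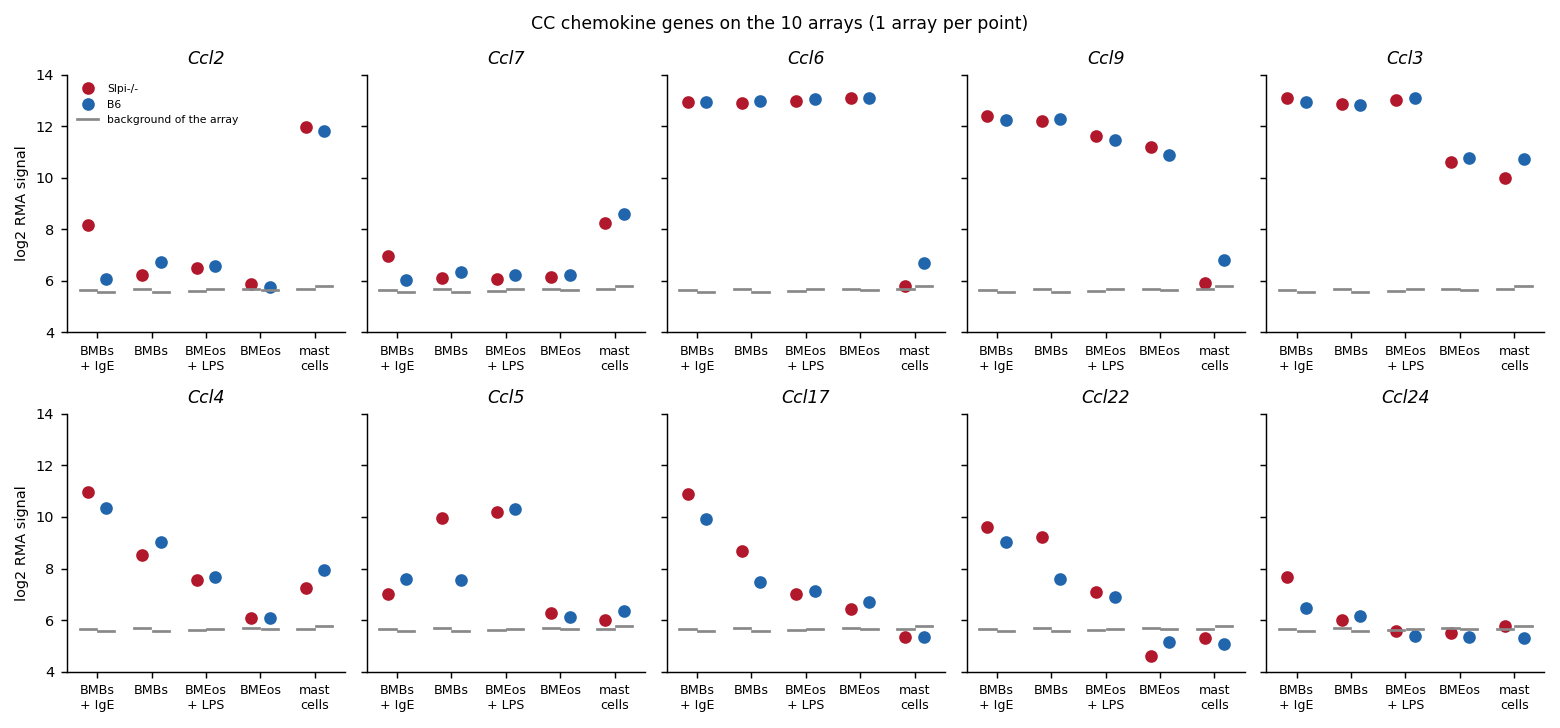
Log2 RMA signal (vertical axis) of each CC chemokine gene on the 10 arrays, with Slpi-/- cells left of B6 cells in each of the 5 settings and the background of each array as a grey bar. Ccl2 and Ccl7 stand highest on the mast cell arrays, Ccl6 and Ccl9 lie above 10 on every BMB and BMEos array and below 7 on the mast cell arrays, and Ccl17 and Ccl4 are highest in BMBs with IgE.

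The unstimulated cells were compared first, by limma over 6 arrays, with terms for cell type and genotype. BMBs differed from mast cells in all 10 CC chemokine genes: 8 were higher in BMBs and 2 were higher in mast cells. The same fit called 18.8% of 12998 genes higher and 17.9% lower in BMBs, or 36.7% in all, and the median log2 difference was 2.52 over the CC chemokine genes (2.41 with genes below background in mast cells at their bounds) and -0.01 over all genes tested. Markers of other cells were higher in BMBs as well: 9 of 11 tested dendritic cell markers (0 lower), 6 of 8 monocyte and macrophage markers (1 lower) and 3 of 4 megakaryocyte markers (1 lower). Of 10 neutrophil markers 3 were higher (Cxcr2, Lcn2 and Ly6g) and 0 lower. The dendritic cell list averaged 7.11 in Slpi-/- and 6.55 in B6 BMBs, against 5.46 in Slpi-/- and 5.49 in B6 mast cells, and the monocyte and macrophage list 6.77 and 6.79 in BMBs, against 5.64 and 5.71 in mast cells. Their part in the chemokine differences was not tested.

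The CCR1 ligand genes Ccl6 and Ccl9 gave the widest separation in that direction. Ccl6 had log2 signals of 12.91 in Slpi-/- and 12.99 in B6 BMBs, against 5.81 in Slpi-/- and 6.70 in B6 mast cells, a log2 difference of 6.69 ± 0.21 (SE; adjusted p = 1.86e-06). Ccl9 had signals of 12.21 and 12.28 in Slpi-/- and B6 BMBs, against 5.91 and 6.79 in Slpi-/- and B6 mast cells (5.89 ± 0.25, adjusted p = 7.15e-06). For both genes the BMB arrays lay close together and far above the mast cell arrays, but the share of all genes that separate in this way was not counted. Slpi-/- minus B6 mast cells was -0.88 for both. In BMEos, Ccl6 was at 13.08 in Slpi-/- and 13.09 in B6 cells and Ccl9 at 11.20 and 10.87, which is 6.83 ± 0.21 and 4.68 ± 0.25 above mast cells (adjusted p = 8.17e-07 and 9.69e-06). BMBs and BMEos did not differ in Ccl6 past the threshold (-0.14 ± 0.21, adjusted p = 0.646), whereas Ccl9 was 1.21 ± 0.25 higher in BMBs (adjusted p = 0.0089).

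The CCR2 ligand genes Ccl2 and Ccl7, which encode attractants of monocytes, went the other way. Ccl2 had log2 signals of 6.23 in Slpi-/- and 6.74 in B6 BMBs, against 11.97 in Slpi-/- and 11.82 in B6 mast cells. It was 42.6-fold lower in BMBs (log2 difference -5.41 ± 0.17, adjusted p = 1.86e-06). Ccl7 was at 6.10 and 6.32 in Slpi-/- and B6 BMBs, against 8.25 and 8.58 in Slpi-/- and B6 mast cells (-2.20 ± 0.10, adjusted p = 1.03e-05). The groups did not overlap for either gene, but the share of all genes that separate in this way was not counted. BMEos had Ccl2 at 5.88 in Slpi-/- and 5.76 in B6 cells, just above the background of their arrays, and Ccl7 at 6.15 and 6.23, and both were lower than in mast cells by about as much (-6.07 ± 0.17 and -2.23 ± 0.10). The mast cell arrays also had high signals of immediate early genes, with Fos at 11.64 in Slpi-/- and 11.56 in B6 mast cells and at most 5.80 on the BMB arrays, Jun at 11.79 on both mast cell arrays and at most 7.21 on the BMB arrays, and Egr1 at 11.91 and 11.88 and at most 8.55. In unstimulated BMEos, where Ccl2 was also low, Fos was at 9.32 in Slpi-/- and 9.41 in B6 cells, Jun at 8.71 and 8.62, and Egr1 at 6.33 and 6.50. The part of these genes in the Ccl2 and Ccl7 signals was not tested.

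Ccl17 and Ccl22, whose products attract T helper 2 cells and regulatory T cells through CCR4, were above background in unstimulated BMBs and below it in mast cells. Ccl17 had log2 signals of 8.69 in Slpi-/- and 7.47 in B6 BMBs, against 5.35 on both mast cell arrays, at least 5.12-fold higher in BMBs (adjusted p = 0.000629). Ccl22 was at 9.23 in Slpi-/- and 7.58 in B6 BMBs, against 5.30 and 5.07 in Slpi-/- and B6 mast cells, at least 6.41-fold higher in BMBs (adjusted p = 0.00144). These bounds set the mast cell level at the background of each array, since a signal below it has no level of its own. In BMEos, Ccl22 was below background as well (4.59 in Slpi-/- and 5.17 in B6 cells), and Ccl17 was at 6.45 and 6.69, at least 1.79-fold above mast cells (adjusted p = 0.0159). That call was lost without the Slpi-/- mast cell array (adjusted p = 0.0718) and without the B6 BMEos array (adjusted p = 0.117). BMBs were higher than BMEos in Ccl22 (at least 6.70-fold, adjusted p = 0.000892) and in Ccl17 (log2 difference 1.51 ± 0.32, adjusted p = 0.00865). The Ccl17 call between BMBs and BMEos was lost without the Slpi-/- BMEos array (1.09, adjusted p = 0.0601) and the difference was 0.84 without the Slpi-/- BMB array.

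Ccl3, Ccl4 and Ccl5, the inflammatory chemokine genes, were also higher in BMBs than in mast cells. Ccl3 had log2 signals of 12.84 and 12.82 in Slpi-/- and B6 BMBs, against 9.9985 and 10.74 in Slpi-/- and B6 mast cells (2.46 ± 0.18, adjusted p = 6.52e-05). Ccl4 was at 8.54 and 9.04 in Slpi-/- and B6 BMBs, against 7.25 and 7.93 in Slpi-/- and B6 mast cells (1.20 ± 0.17, adjusted p = 0.00149). Ccl5 was at 9.97 in Slpi-/- and 7.55 in B6 BMBs, against 5.99 in Slpi-/- and 6.35 in B6 mast cells (2.59 ± 0.58, adjusted p = 0.0125). The Ccl5 value depended on single arrays: it was 1.33 without the Slpi-/- BMB array, and it was 1.76 with an adjusted p of 0.0503 without the Slpi-/- mast cell array. In BMEos, Ccl3 was at 10.59 and 10.78 in Slpi-/- and B6 cells, Ccl5 at 6.27 and 6.10, and neither differed from mast cells past the threshold (0.31 ± 0.18 and 0.02 ± 0.58, adjusted p = 0.187 and 0.985). Ccl4, at 6.07 in Slpi-/- and 6.06 in B6 BMEos, was lower than in mast cells (-1.52 ± 0.17, adjusted p = 0.000286). BMBs were thus higher than BMEos in all of Ccl3 (2.15 ± 0.18), Ccl4 (2.72 ± 0.17) and Ccl5 (2.57 ± 0.58), the last with an adjusted p of 0.0117 that became 0.0745 without the Slpi-/- BMEos array and with a value of 1.31 without the Slpi-/- BMB array.

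Ccl24 was near background in every unstimulated cell, at 5.996 in Slpi-/- and 6.18 in B6 BMBs, against 5.78 in Slpi-/- and 5.29 in B6 mast cells. The B6 mast cell array was below background, and with it set at background the log2 difference between BMBs and mast cells was 0.31 (adjusted p = 0.0327 in the fit of the signals as deposited). The call was lost without the B6 BMB array (adjusted p = 0.194) and without the B6 mast cell array (adjusted p = 0.228). Ccl24 was below background in BMEos, at 5.50 in Slpi-/- and 5.34 in B6 cells, at least 1.34-fold lower than in BMBs, a call that each of the Slpi-/- BMEos, B6 BMEos and B6 BMB arrays decided (adjusted p = 0.0693, 0.0729 and 0.0774 without them).

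Between BMEos and mast cells 3 CC chemokine genes were higher in BMEos (Ccl6, Ccl9 and Ccl17), 3 were lower (Ccl2, Ccl4 and Ccl7) and 4 did not pass, whereas the fit called 24.3% of all genes higher and 26.8% lower, 51.1% together. Their median difference was -0.05, against -0.04 over all genes tested. Of 10 neutrophil markers 6 were higher in BMEos than in mast cells (0 lower), and of 8 monocyte and macrophage markers 5 were (1 lower). These 5 include Adgre1, by whose protein the paper gates eosinophils, so it cannot stand for other cells in BMEos. Between BMBs and BMEos 8 were higher in BMBs and 0 lower, against 21.2% of all genes higher and 18.6% lower (39.7% together), and the medians were 1.36 and 0.03. The 2 that did not pass were Ccl6 and Ccl7 (0.02 ± 0.10). Markers higher in BMBs than in BMEos were 6 of 11 of dendritic cells (1 lower) and 4 of 4 of megakaryocytes. For monocytes and macrophages 4 of 8 were (3 lower, Adgre1 among them), and for neutrophils 2 of 10 (3 lower). The part of such cells in these comparisons was not tested. The Ccl2 call between BMBs and BMEos (0.66 ± 0.17, adjusted p = 0.0197) was lost without the B6 BMB array (0.35, adjusted p = 0.0821) and without the B6 BMEos array (0.52, adjusted p = 0.14), and the Ccl9 call was lost without the B6 BMEos array (0.81, adjusted p = 0.0582). Each of these fits leaves 1 array of a cell type, and fewer of the 10 genes were called without either BMEos array or without the B6 BMB array.

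**Figure D2:**
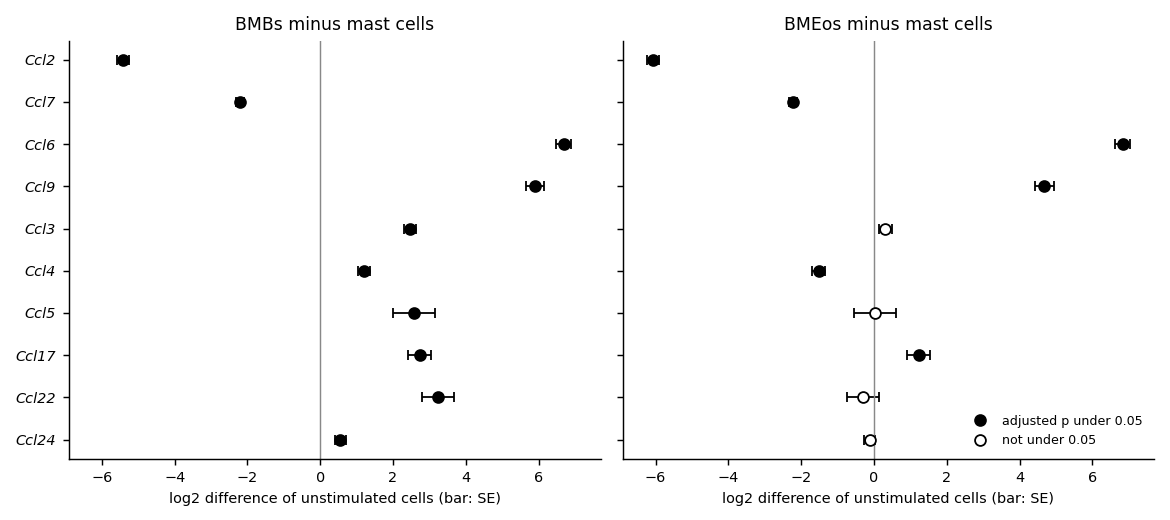
Log2 difference (horizontal axis) of unstimulated BMBs (left) and BMEos (right) from mast cells for each CC chemokine gene, from limma, with the SE as a bar and filled points where the adjusted p is under 0.05. Differences run between -5.41 for Ccl2 and 6.69 for Ccl6 in BMBs and between -6.07 for Ccl2 and 6.83 for Ccl6 in BMEos, and the points of Ccl17, Ccl22 and Ccl24 are fitted from signals in part below background.

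The response of BMBs to IgE and antigen was asked next, with the genotypes as the pairs. Of the 10 genes, Ccl17 and Ccl4 rose, 0 fell and 8 did not pass, against 12.2% of 13571 genes called higher and 10.6% lower by the same fit (22.8% together). The median response was 0.45 over the 10 genes and -0.02 over all genes tested. Ccl17, the gene of a CCR4 ligand, had log2 signals of 10.91 in Slpi-/- and 9.94 in B6 BMBs with IgE, against 8.69 and 7.47 in unstimulated Slpi-/- and B6 BMBs. It was 5.05-fold higher with IgE (2.34 ± 0.11, adjusted p = 0.000245) and moved about as far in both genotypes, by 2.21 in Slpi-/- and 2.46 in B6 cells. Ccl4 was at 10.97 in Slpi-/- and 10.34 in B6 BMBs with IgE, against 8.54 and 9.04 without (1.86 ± 0.24, adjusted p = 0.00377). For both genes the arrays with IgE lay above those without, but the share of all genes for which this holds was not counted.

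Ccl22 and Ccl24 were higher with IgE in both genotypes and narrowly missed the threshold. Ccl22 was at 9.62 in Slpi-/- and 9.04 in B6 BMBs with IgE, against 9.23 and 7.58 without (0.92 ± 0.27, adjusted p = 0.0557). The unstimulated Slpi-/- array lay above the stimulated B6 array. Ccl24 was at 7.69 in Slpi-/- and 6.46 in B6 BMBs with IgE, against 5.996 and 6.18 without (0.99 ± 0.29, adjusted p = 0.0545). Both passed with a stricter background (the 99th percentile) or with a trend of the variance on signal, which made 4 genes called in place of 2. Over all genes the stricter background called 1735 higher and 1559 lower of 9940, and the trend 1858 and 1667 of 13571. With the B6 BMB pair left out, the responses were those of Slpi-/- cells, 0.39 for Ccl22 and 1.69 for Ccl24. Ccl3, Ccl6 and Ccl9, which were at signals above 12 in unstimulated BMBs, had 13.07, 12.93 and 12.37 in Slpi-/- and 12.94, 12.92 and 12.24 in B6 BMBs with IgE. Their responses were 0.17 ± 0.10, -0.02 ± 0.09 and 0.06 ± 0.11, and none passed.

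The remaining Ccl2, Ccl5 and Ccl7 moved in opposite directions in the 2 genotypes, and none of their mean responses passed (0.62 ± 0.52, -1.46 ± 0.60 and 0.29 ± 0.25). Ccl2 was at 8.15 in Slpi-/- and 6.06 in B6 BMBs with IgE, against 6.23 and 6.74 without, a response of 1.91 in Slpi-/- and -0.68 in B6 cells. Ccl7, its neighbour on chromosome 11, was at 6.97 and 6.03 with IgE, against 6.10 and 6.32 without, a response of 0.87 in Slpi-/- and -0.29 in B6 cells. Ccl5 was at 6.99 in Slpi-/- and 7.60 in B6 BMBs with IgE, against 9.97 and 7.55 without, a response of -2.98 in Slpi-/- and 0.05 in B6 cells. So for Ccl2 and Ccl7 the Slpi-/- array with IgE stood above the other BMB arrays, and for Ccl5 the unstimulated Slpi-/- array did. Responses of opposite sign were not rare, since 27.5% of all genes tested had them. A difference between the responses of the genotypes rests on 1 array per condition and has no test.

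Other genes measured on the same arrays give the setting of the IgE response. Of 14 listed cytokine genes of mast cells and basophils, 13 had a named probe set and 8 were tested, of which 7 rose (Il1b by 2.89, Il6 by 2.49, Il13 by 2.35 and Tnf by 2.09 among them) and Csf1 fell. Of 14 genes of NFAT and AP-1 signalling 4 rose (Egr2 by 1.26, Egr3 by 1.09, Fosl2, and Fosl1 at least 2.64-fold, as it was below background without IgE) and Fos, below background with IgE, was at least 1.10-fold lower, and of 14 tested genes of NF-κB signalling 0 rose and 2 fell (Birc3 and Ikbkb). Of 9 tested receptor genes 4 were called lower with IgE: Ccr2 (-2.24), Ccr1 (-0.56), Ccr3, which was below background in B6 BMBs with IgE and at least 2.30-fold lower, and Ccr1l1, which was above background on only 1 of the 4 BMB arrays. Ccr2, the receptor of Ccl2 and Ccl7, had signals of 7.95 in Slpi-/- and 6.90 in B6 BMBs with IgE, against 9.80 and 9.52 without. Genes listed as markers of other cells changed too. Of 12 tested dendritic cell markers Itgax rose and 3 fell (Cd74, H2-Aa and H2-Eb1). Of 10 tested monocyte and macrophage markers Adgre1 rose and 2 fell (Ccr2 and Mertk), and of 10 neutrophil markers Ly6g fell. Of 4 sex-linked genes, Y-linked Eif2s3y and Uty were called lower with IgE, and Xist was below background with and without it. Their part in the IgE response was not tested.

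The response of BMEos to LPS, an agonist of TLR4, was tested in the same fit. The SE of a gene in that fit is drawn from its BMB and BMEos pairs together, so it is not the spread of BMEos alone. Of the 10 genes 6 rose (Ccl3, Ccl4, Ccl5, Ccl9, Ccl17 and Ccl22) and 0 fell, against 12.7% of 13571 genes called higher and 16.2% lower (28.9% together). Their median response was 0.61, against 0.02 over all genes tested. Ccl5, whose product attracts T cells and eosinophils, was at 10.19 in Slpi-/- and 10.31 in B6 BMEos with LPS, against 6.27 and 6.10 in unstimulated Slpi-/- and B6 BMEos (4.06 ± 0.60, adjusted p = 0.00456). Ccl3 was at 13.03 and 13.11 with LPS, against 10.59 and 10.78 without (2.38 ± 0.10, adjusted p = 3.73e-05). Ccl4 was at 7.54 and 7.66 with LPS, against 6.07 and 6.06 without (1.53 ± 0.24, adjusted p = 0.00538). In these 3 genes the arrays with LPS lay above those without, with the genotypes close together in each state. The share of all genes for which this holds was not counted.

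Ccl22, which was below background in unstimulated BMEos, was at 7.08 in Slpi-/- and 6.91 in B6 BMEos with LPS, against 4.59 and 5.17 without, at least 2.52-fold higher with LPS (adjusted p = 0.00256). Ccl17, the other CCR4 ligand gene, was at 7.02 and 7.13 with LPS, against 6.45 and 6.69 without (0.51 ± 0.11, adjusted p = 0.0157), and Ccl9 at 11.63 and 11.47 with LPS, against 11.20 and 10.87 without (0.52 ± 0.11, adjusted p = 0.014). These smaller calls were lost when either genotype was left out, with adjusted p-values of 0.062 to 0.143 for Ccl9 and of 0.078 to 0.144 for Ccl17. Ccl2 was at 6.48 in Slpi-/- and 6.58 in B6 BMEos with LPS, against 5.88 and 5.76 without (0.71 ± 0.52), and did not pass (adjusted p = 0.342), although it was higher in both pairs. Its responses were 0.60 in Slpi-/- and 0.82 in B6 BMEos, and in the limma fit of the BMEos arrays alone its adjusted p was 0.00595. Ccl6 (12.99 and 13.04 with LPS, against 13.08 and 13.09 without), Ccl7 and Ccl24 had responses of -0.07 ± 0.09, -0.04 ± 0.25 and 0.07 ± 0.29. Only Ccl7 went in opposite directions in the genotypes (-0.09 in Slpi-/- and 0.01 in B6 cells), as 21.4% of all genes did.

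Genes listed as markers of other cells moved with LPS. Of 10 tested monocyte and macrophage markers 5 rose (Adgre1, C1qa, Cd14, Csf1r and Fcgr1) and 0 fell. The list averaged 6.94 in Slpi-/- and 6.87 in B6 BMEos with LPS, against 6.53 and 6.40 without. Adgre1 cannot stand for other cells here, since the paper gates transferred eosinophils by its protein together with Siglec-F. It was at 12.09 on both unstimulated BMEos arrays, and at 12.53 in Slpi-/- and 12.55 in B6 BMEos with LPS. Of 12 tested dendritic cell markers 5 rose (Cd74 by 1.74 and H2-Aa by 1.30 among them) and Itgax fell, and the list averaged 6.64 and 6.58 with LPS, against 6.26 and 6.17 without. Their part in the chemokine response was not tested.

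With LPS, 11 of 14 tested genes of NF-κB signalling rose (Nfkbia, Bcl3, Nfkb2 and Tnip1 among them) and 0 fell, and 7 of 8 tested interferon-induced genes rose (Rsad2 at least 44.1-fold and Ifit1 at least 8.77-fold among them, both below background without LPS). The BMEos arrays with LPS differed from those without in sex-linked genes too: Xist was at 9.66 in Slpi-/- and 9.72 in B6 cells with LPS, against 4.90 and 4.15 without, and Y-linked Eif2s3y at 3.54 and 3.22 with LPS, against 8.45 and 8.20 without. LPS and the sex of the mice therefore cannot be told apart in this comparison. When each array was centred on its median, the calls over all genes changed to 1203 higher and 2756 lower, against 1724 and 2202 as deposited, and the same 6 CC chemokine genes were counted as called.

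The responses of BMBs to IgE and of BMEos to LPS were compared by the test of their difference, in which cell type, agent and time differ together. Sex-linked genes differed too, with Xist called lower and Eif2s3y, Kdm5d and Uty higher for IgE minus LPS. The sex of the mice therefore cannot be told apart from these either. The response to LPS was larger in Ccl3 (IgE minus LPS -2.21 ± 0.14, adjusted p = 0.000297) and in Ccl5 (-5.52 ± 0.86, adjusted p = 0.00697), and the response to IgE was larger in Ccl17 (1.83 ± 0.15, adjusted p = 0.00078). The other 7 did not pass. Over all genes tested the difference was called higher in 13.3% and lower in 9.71%, or 23.0% together. Ccl3 was already at 12.82 to 12.84 in unstimulated BMBs, close to the 13.03 to 13.11 it had in BMEos with LPS, whereas Ccl5 and Ccl17 were not at the same level in the unstimulated cells of the 2 types. Ccl4 passed in both cells, and the difference of its responses was 0.33 ± 0.34 (adjusted p = 0.505). Ccl22, below background in unstimulated BMEos, did not pass (adjusted p = 0.0692). The differences depended on the pairs used, and that of Ccl2 was -0.0937 with all arrays and 1.20 without the B6 BMB pair.

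**Figure D3:**
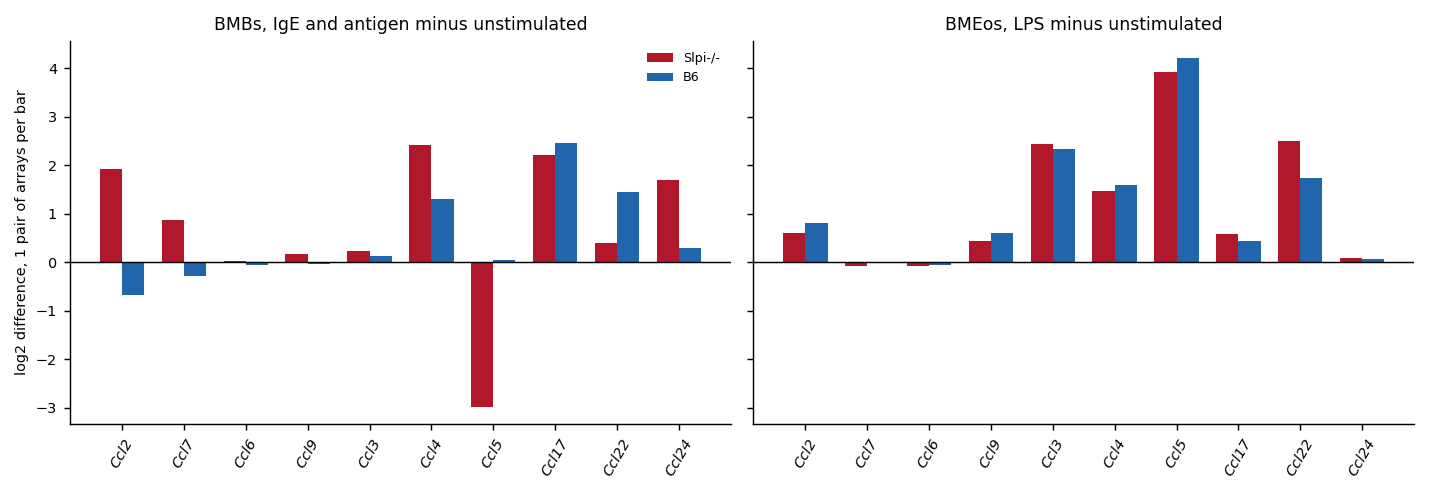
Log2 difference (vertical axis) between stimulated and unstimulated BMBs with IgE (left) and BMEos with LPS (right), 1 pair of arrays per bar, with Slpi-/- cells left of B6 cells. Ccl17 has bars of 2.21 and 2.46 with IgE, Ccl5 has bars of -2.98 and 0.05 with IgE and of 3.92 and 4.20 with LPS, and Ccl2 bars of 1.91 and -0.68 with IgE.

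The last comparison asked whether the loss of Slpi changed the CC chemokine genes. In BMBs 0 of 10 passed, and the fit called 0.00737% of all genes, which is Slpi alone (-4.93). At an unadjusted p under 0.05 there were 2, Ccl17 and Ccl22, by limma, and 0 by the methods' t-test. Over all 13571 genes tested there were 917 by limma and 647 by the t-test. Ccl17 was higher in Slpi-/- than in B6 BMBs both with IgE (10.91, against 9.94) and without (8.69, against 7.47), by 1.10 ± 0.11 on the log2 scale (adjusted p = 0.0602), and it stood at rank 4 of 13571 genes by p. With a trend of the variance on signal its adjusted p was 0.0178. Over the alternatives tried its adjusted p lay between 0.0178 and 0.982. Ccl22 was higher in Slpi-/- BMBs with IgE (9.62, against 9.04) and without (9.23, against 7.58), by 1.12 ± 0.27 (adjusted p = 0.462), at rank 156. The genotype difference of BMBs minus that of BMEos was 1.27 for Ccl17 (adjusted p = 0.378), and 0 of the 10 genes passed that test. At an unadjusted p under 0.05 it gave 2 of the 10, and 826 of all 13571 genes.

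Single pairs of arrays showed larger differences in BMBs. Without stimulation Ccl5 (2.43), Ccl22 (1.65) and Ccl17 (1.22) were at least 2-fold higher in Slpi-/- BMBs, as were 0.243% of all genes tested. With IgE Ccl2 (2.09) and Ccl24 (1.22) were, as were 0.435% of all genes, and Ccl17 (0.97) and Ccl7 (0.94) came close. No CC chemokine gene was at least 2-fold lower in Slpi-/- cells in any of the 5 settings, and none was 2-fold higher in BMEos or mast cells. Over all genes tested the share at least 2-fold lower was 0.494% in BMBs and 0.192% in BMBs with IgE. In BMEos 0.0589% of genes were at least 2-fold higher and 0.0442% lower, in BMEos with LPS 0.0811% and 0.0663%, and in mast cells 0.0295% and 0.0811%. The median difference over the 10 genes was -0.08 without and 0.60 with IgE. These values are descriptions of 1 pair of arrays each. When the IgE pair was left out of the fit, the Ccl5 difference in BMBs was 2.43, which rests on the 1 unstimulated pair.

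Markers of other cells differed between the same arrays. Of 13 dendritic cell markers 2 were at least 2-fold higher in unstimulated Slpi-/- BMBs, Ccr7 (9.60, against 7.96 in B6) and Fscn1 (8.51, against 7.48), both known from migratory dendritic cells, and the list averaged 7.11 in Slpi-/- and 6.55 in B6 BMBs. With IgE 3 were, Itgax (7.86, against 6.47), H2-Aa (7.69, against 6.23) and Cd74 (9.13, against 8.12), and the list averaged 6.79 in Slpi-/- and 6.43 in B6 BMBs, while Ccr7 (7.94, against 8.19) and Fscn1 (7.45, against 8.19) were not higher. H2-Ab1 and H2-Eb1 were higher in Slpi-/- BMBs too, at 7.83 and 7.62 with IgE, against 7.42 and 6.996 in B6, and at 7.82 and 8.14 without, against 7.33 and 7.50 in B6. Clec9a was just above background on both Slpi-/- arrays (5.78 with and 5.73 without IgE) and below it on both B6 arrays (4.98 and 5.38), and Flt3, Zbtb46, Xcr1 and Cd209a read at most 5.74 on the 4 BMB arrays. Of 4 megakaryocyte markers 3 were at least 2-fold higher in Slpi-/- BMBs with IgE, namely Ppbp (11.45, against 8.81 in B6), Gp9 (8.80, against 6.91) and Pf4 (10.85, against 8.96), and 0 without IgE. Of 12 monocyte and macrophage markers only Ccr2 was (7.95, against 6.90, with IgE), and the list averaged 6.63 in Slpi-/- and 6.39 in B6 BMBs with IgE and 6.77 and 6.79 without. Of 10 neutrophil markers 6 were at least 2-fold lower in unstimulated Slpi-/- BMBs, Mpo (5.995, against 8.84 in B6) and Elane (5.47, against 7.14) among them. The 8 basophil markers averaged 11.47 and 11.58 in Slpi-/- BMBs with and without IgE, against 11.44 and 11.63 in B6 BMBs. The part of these cells in the CC chemokine differences was not tested.

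In BMEos the largest difference among the genes above background was 0.33 (Ccl9) without LPS and -0.18 (Ccl7) with LPS, Ccl22 without LPS and Ccl24 in both states being below background in both genotypes. By limma 0 of the 10 passed, also at an unadjusted p under 0.05, and by the methods' t-test 1 had an unadjusted p under 0.05 (Ccl24). Over all 13571 genes tested, 785 had one by limma and 724 by the t-test. In mast cells Slpi-/- minus B6 was -0.88 for Ccl6 and for Ccl9, -0.74 for Ccl3 and -0.69 for Ccl4, with no replicate. Over all 5 settings 0 genes passed, of the 10 or of all genes tested, and 0 of the 10 had an unadjusted p under 0.05, against 722 of all genes.

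**Figure D4:**
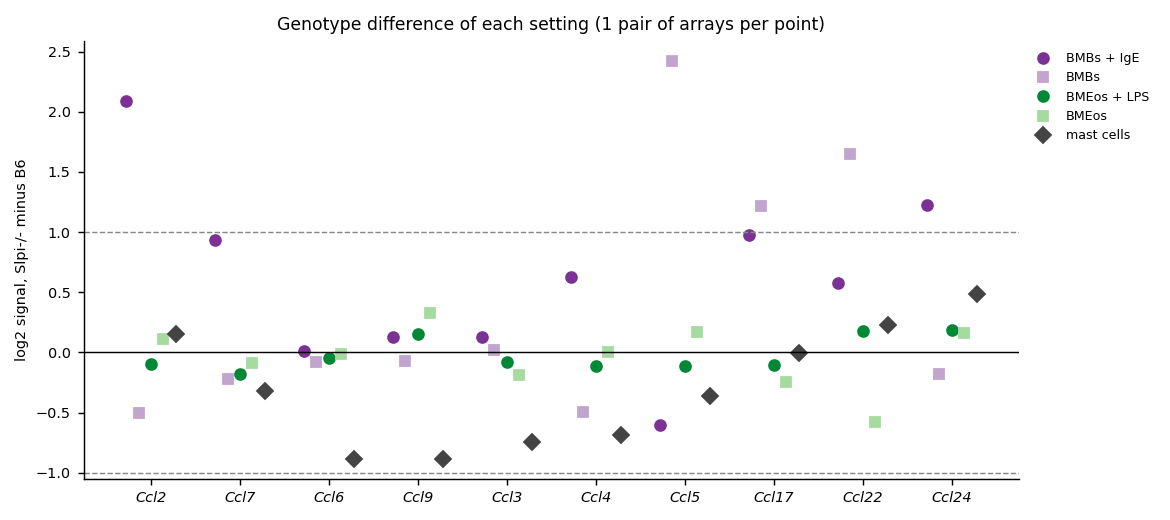
Log2 signal of Slpi-/- minus B6 cells (vertical axis) for each CC chemokine gene in each of the 5 settings, 1 pair of arrays per point, with dashed lines at 2-fold. The points past the upper line are BMBs: Ccl5, Ccl17 and Ccl22 without stimulation and Ccl2 and Ccl24 with IgE.

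Genes that ran alike over the 10 arrays were ranked by Pearson's r, as a description, since the arrays fall into 3 cell types that set most of it. Ccl2 and Ccl7 ranked highest for each other (r = 0.99), followed for Ccl2 by Gcsam and Ackr1 (both 0.98). Ackr1, which encodes an atypical receptor that takes up CC chemokines without signalling, was at 9.39 in Slpi-/- and 9.68 in B6 mast cells and at most 6.49 on the other arrays. Ccl6 was followed most closely by Pstpip1, Septin1 and Haao (all 0.99), Ccl9 by C3ar1, Traf3ip3 and Sorl1 (all 0.99), and Ccl3 by Tspan9, Acsl5 and Cd82 (0.97 to 0.96). Ccl17 was closest to Arid3b, Piezo1 and Carmil2 (0.98 to 0.97), Ccl22 to Ern1, Fbxo28 and Myof (0.97 to 0.95), Ccl4 to Cct5, Atf6b and Rtca (all 0.97), Ccl5 to Masp2 (0.97), Gm7265 and Mir361 (both 0.95), Ccl7 after Ccl2 to Apba1 and Tmem128 (both 0.98), and Ccl24 to Spin4, Robo3 and Ammecr1 (0.95 to 0.93). Among the 10 genes themselves, Ccl17 and Ccl22 had r = 0.91, Ccl6 and Ccl9 0.97, and Ccl3 and Ccl4, the overlapping neighbours, 0.67.

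The other CC chemokine genes and the receptors were read on the same arrays. Of 14 other CC chemokine genes listed, 9 had a named probe set. Ccl8, Ccl12, Ccl26 and Ccl28 were below background on all 10 arrays and Ccl1 exceeded it on 1. Of the 5 tested with IgE, the fit called Ccl1 higher (adjusted p = 0.0146) and Ccl20 lower (adjusted p = 0.0271), but each was above background on only 1 of the 4 BMB arrays, so no fold is given. With LPS 0 of 5 passed. In the unstimulated cells 4 were tested, and 0 of them differed between BMBs and mast cells past the threshold. Ccl25 alone was lower in BMEos than in mast cells, and Ccl25 alone was higher in BMBs than in BMEos. Among receptor genes, Ccr1, for the products of Ccl3, Ccl5, Ccl6 and Ccl9, was at 8.72 in Slpi-/- and 8.69 in B6 BMBs and at 8.87 and 9.01 in BMEos, against 7.63 and 7.37 in Slpi-/- and B6 mast cells. Ccr2 was at 9.80 and 9.52 in BMBs, against 4.59 and 4.43 in mast cells, where its ligand genes Ccl2 and Ccl7 were highest. Ccr3 was at 12.30 and 12.25 in Slpi-/- and B6 BMEos, against 6.65 and 6.82 in mast cells. Ccr4, for the products of Ccl17 and Ccl22, was below background on all 10 arrays.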

How the data were processed

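RNA of 10 conditions was hybridized to 1 array each. The deposited values are log2 signals, which the authors obtained by robust multi-array averaging (the submitters' processing notes name RMA and affy, with no version), and they were used without further normalization. Of 34760 probe sets, 21640 have 1 gene symbol in the platform annotation, 1321 have several and 11799 have none, and the first kind stand for 19937 genes. A gene was tested where it exceeded background on at least 1 array of the fit. All tests used lmFit and eBayes of limma (version 3.58.1, under R 4.3.3) with p-values adjusted by the method of Benjamini and Hochberg over every gene tested and a threshold of 0.05. A single model of the 10 arrays gave the responses and the genotype differences in BMBs and BMEos: it held a level per genotype within each cell type, and 1 effect each of IgE and LPS (2 residual degrees of freedom, 13571 genes). The genotype difference over all 5 settings took the setting as a block (4 residual degrees of freedom), and cell types were compared on the unstimulated arrays (2 residual degrees of freedom, 12998 genes). Precision is limited by having 1 array per condition. A bound sets each dimmer array at the higher of its background and the gene's own signal. The scripts were checked on simulated data with known changes. The members and gene lists were chosen with earlier results of these data known. Every member was named, with up to 4 genes of each other list (more where markers of other cells differed between arrays, named after their values were seen) and the 3 genes most like each member. Alternatives were 2 other normalizations, a stricter background, no filter, averaged probe sets, a variance trend, other fits, the methods' t-test and each pair or array left out. Python 3.11.15 with numpy 2.4.6, pandas 2.3.3 and, for plots, matplotlib 3.10.9 did the rest.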

Additional observations from a re-analysis of the deposited data

Results flagged for a closer look

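In 6 cases the Slpi-/- pair of arrays and the B6 pair moved in opposite directions under the same stimulus. With 1 array per condition none of these differences was tested, and 27.5% of all genes had opposite directions with IgE and 21.4% with LPS. In BMBs with IgE, the response in Slpi-/- minus that in B6 cells was 2.59 for Ccl2 (1.91 in Slpi-/- and -0.68 in B6 cells), -3.03 for Ccl5 (-2.98 in Slpi-/- and 0.05 in B6 cells) and 1.16 for Ccl7 (0.87 in Slpi-/- and -0.29 in B6 cells). For Ccl9 it was 0.21 (0.16 in Slpi-/- and -0.04 in B6 cells) and for Ccl6 it was 0.0892 (0.02 in Slpi-/- and -0.07 in B6 cells). In BMEos with LPS it was -0.10 for Ccl7 (-0.09 in Slpi-/- and 0.01 in B6 cells).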

How the results depend on the processing

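The number of CC chemokine genes called depended on the test. The methods' t-test has 1 degree of freedom on 2 pairs, and after adjustment it called 0 of the 10 genes for IgE, for LPS, for BMBs against mast cells, for BMEos against mast cells and for BMBs against BMEos, against 2, 6, 10, 6 and 8 by limma. At an unadjusted p under 0.05 it gave 1, 3, 4, 3 and 1. Over all genes it gave 1516 and 2460 of 13571 for the responses, and 2336, 3545 and 2463 of 12998 for the cell types. With a variance trend 4 genes were called for IgE, 5 in place of 3 for the difference between the IgE and LPS responses, and 1 in place of 0 (Ccl17) for genotype in BMBs. Over all 13571 genes the trend called 1858 higher and 1667 lower, 2074 and 1379, and 5 and 4 in these comparisons. With the 99th percentile as background 4 were called for IgE, against 1735 higher and 1559 lower of 9940 genes, and Ccl24 had no value for the unstimulated cells. With 1 pair or array left out, the number called changed for IgE, for LPS, for IgE minus LPS and for genotype in BMBs. It also changed for BMBs against mast cells, BMEos against mast cells and BMBs against BMEos. Such fits leave 1 pair, or 1 array of a cell type, and their counts are not given. The cause was not tested. Of the values of single genes under these alternatives, 1040 kept their direction and their side of the threshold, 55 no longer passed, 23 passed only then, and 47 changed sign. None of the 47 concerned a difference that passed as reported, and 1 passed under the alternative: the IgE minus the LPS response of Ccl2, -0.0937 with all arrays, was 1.20 (adjusted p = 0.0128) without the B6 BMB pair and -1.39 (adjusted p = 0.0113) without the Slpi-/- BMB pair. With quantile normalization 4 values changed sign, to -0.0051 for Ccl9 with IgE, -0.0067 for Ccl24 with LPS, 0.0167 for Ccl6 between genotypes in BMEos and -0.0203 for Ccl7 between BMBs and BMEos, and with arrays centred on their median 2 did, to -0.0025 for Ccl24 with LPS and -0.0126 for Ccl7 between BMBs and BMEos. The other 41 came from leaving out 1 pair or array and concern 37 differences, whose lowest and highest log2 values spanned 0. For the IgE response the ranges were -0.68 to 1.91 for Ccl2, -2.98 to 0.0527 for Ccl5, -0.0666 to 0.0226 for Ccl6, -0.29 to 0.87 for Ccl7 and -0.0412 to 0.16 for Ccl9. For the LPS response the range was -0.087 to 0.0107 for Ccl7. For the IgE minus the LPS response the ranges were -1.39 to 1.20 for Ccl2, -0.23 to 0.89 for Ccl4 and -0.25 to 0.91 for Ccl7. For genotype in BMBs the ranges were -0.50 to 2.09 for Ccl2, -0.49 to 0.63 for Ccl4, -0.60 to 2.43 for Ccl5, -0.0801 to 0.0091 for Ccl6, -0.22 to 0.94 for Ccl7, -0.0743 to 0.13 for Ccl9 and -0.18 to 1.22 for Ccl24. For genotype in BMEos the ranges were -0.0991 to 0.12 for Ccl2, -0.12 to 0.0073 for Ccl4, -0.12 to 0.17 for Ccl5 and -0.58 to 0.18 for Ccl22. For genotype in BMBs minus that in BMEos the ranges were -0.51 to 2.08 for Ccl2, -0.44 to 0.68 for Ccl4, -0.63 to 2.40 for Ccl5, -0.05 to 0.0392 for Ccl6, -0.0886 to 1.07 for Ccl7 and -0.36 to 1.05 for Ccl24. For genotype over all settings the ranges were -0.0835 to 0.56 for Ccl2, -0.32 to 0.0064 for Ccl4, -0.23 to 0.53 for Ccl5, -0.20 to 0.11 for Ccl7 and -0.17 to 0.13 for Ccl9. For BMEos against mast cells the ranges were -0.0161 to 0.64 for Ccl3, -0.81 to 0.85 for Ccl5, -1.06 to 0.45 for Ccl22 and -0.36 to 0.13 for Ccl24. For BMBs against BMEos the ranges were -0.37 to 0.0932 for Ccl6 and -0.0706 to 0.12 for Ccl7. No paired analysis by replicate number was possible because the labels give no such numbers. The pairs used are those of the design, and ranges of Ccl22 and Ccl24 that involve BMEos or mast cells rest on signals at or below background.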
